A study of Mus musculus with 2 samples.

Results

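The C-type lectin receptor genes were read in the mouse macrophage-like line RAW264.7, grown in serum-containing medium, with and without knockdown of Lamtor1. The set holds every gene that the array annotation names Clec or Cd209 with a suffix, together with Mrc1, Mrc2, Mgl2 and Cd69. It came to 44 genes, read by 54 probes, of 22801 named genes on the array. Of these 44, 16 were well above background on both arrays, 5 on the control array only, 1 on the knockdown array only and 22 on neither. Of all 22801 named genes, 12565 were so on both arrays and 13773 on at least 1. Over all spots the share was 53.3% in the control and 52.9% in the knockdown. The genes seen on 1 array only were not split by array over all genes, so 5 against 1 has no baseline here. "Well above background" is the scanner software's own flag for each spot, and genes flagged on at least 1 array are called measured here.

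The series compares control RAW264.7 cells with RAW264.7 cells carrying a Lamtor1 knockdown, with 1 array of each. Lamtor1 anchors Ragulator, the lysosomal complex through which amino acids activate mTORC1, and the series asks about the activity of the transcription factor TFEB without it. The treatment text, printed alike for both samples, describes a lentiviral mixture of 2 short hairpin vectors against Lamtor1 followed by limiting dilution. Which virus, if any, the control cells received, and whether the knockdown cells are a single clone, was not given in the sources used here. Lamtor1 itself was 23.1-fold lower on the knockdown array (intensity 20046 in the control and 931 in the knockdown). Of 10 macrophage marker genes, 9 were above background on both arrays and Mertk on neither. Their summed intensity was 511787 in the control and 335188 in the knockdown, and their log2 differences ran from -1.56 for Adgre1 to 1.52 for Fcgr3. Their part in the receptor values was not tested. Of the marker genes of other cell types, Cd3e and Cd4 of T cells, Zbtb46 and Itgax of dendritic cells, Prf1 of natural killer cells, Elane of neutrophils and Col1a2 of fibroblasts were above background on both arrays. Cd79b of B cells and Pdgfrb of fibroblasts were above it in the control only, and Camp of neutrophils in the knockdown only. The other listed genes on the array, among them Ms4a1, Cd3d, Ncr1, Flt3 and Ly6g, and all 4 epithelial genes were above it on neither array.

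C-type lectin receptors carry a fold that in many members binds sugars with the help of calcium. On macrophages and dendritic cells they recognise fungal, mycobacterial and self ligands. Some members activate the kinase Syk, through a motif of their own or through the adaptor chains Fcer1g and Tyrobp, and Card9 then links Syk to NF-kappaB. Others carry inhibitory motifs, others again take up glycoproteins for degradation in lysosomes, and a few genes with Clec names encode secreted or intracellular proteins that are no receptors.

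With 1 array per group there is no replicate check, no test was possible, and each difference describes these 2 arrays only. Differences are log2 values, knockdown minus control, after each array was scaled to its own 75th percentile. A difference of 1 is a 2-fold change and was used as the threshold for counting. The error given with a difference, written ±, is the scanner software's estimate for the spots (n = 1 spot per array) and does not cover cultures or labelling. Levels of different genes come from different probes and are not compared. A fold written "at least" is a bound, given where a gene was not above background on 1 array: it sets the bright signal against the dim one or against that array's detection floor, whichever is higher. The floor is the dimmest flagged signal, 18.7 for the control and 20.2 for the knockdown. A bound does not allow for the scanner error, so it is no firm minimum for a dim gene. In bulk RNA, fewer cells with a transcript and less transcript per cell cannot be told apart.

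The receptors moved in both directions. In the knockdown, 4 of the 22 measured members were higher by 2-fold or more and 6 were lower by as much, 10 in either direction. Over all 13773 measured genes the shares were 9%, 8.35% and 17.4%. The 4 higher members were Clec4n, Clec7a, Mrc1 and Clec4b1. The 6 lower ones were Clec10a, Clec14a, Clec4a1, Clec2d, Clec1a and Mgl2. The counts were again 4 and 6 when the genes seen on 1 array only were counted by their bounds, where the shares over all genes were 7.73% higher, 6.86% lower and 14.6% in either direction. At 4-fold by plain differences, 2 members were higher and 5 lower, against 4.22% and 3.59% of all measured genes, or 7.81% in either direction. Clec4b1 and Clec1a are among these only by plain difference, since their bounds were 2.09-fold higher and 2.31-fold lower. Of the 16 members above background on both arrays, 3 were higher and 4 lower at 2-fold, and 10 had a difference above 0. Among the 12565 genes of that kind 6.31% were higher, 5.52% lower, 11.8% either of these, and 45.4% above 0. The median difference of the measured members was -0.0082, against -0.05 over all measured genes. With normexp, another background correction, which shrinks differences of dim spots, the higher members were 2, Clec4n and Clec7a, and the lower ones 4, Clec10a, Clec14a, Clec4a1 and Clec2d. Of all 13773 measured genes, 789 were then higher and 613 lower.

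**Figure D1:**
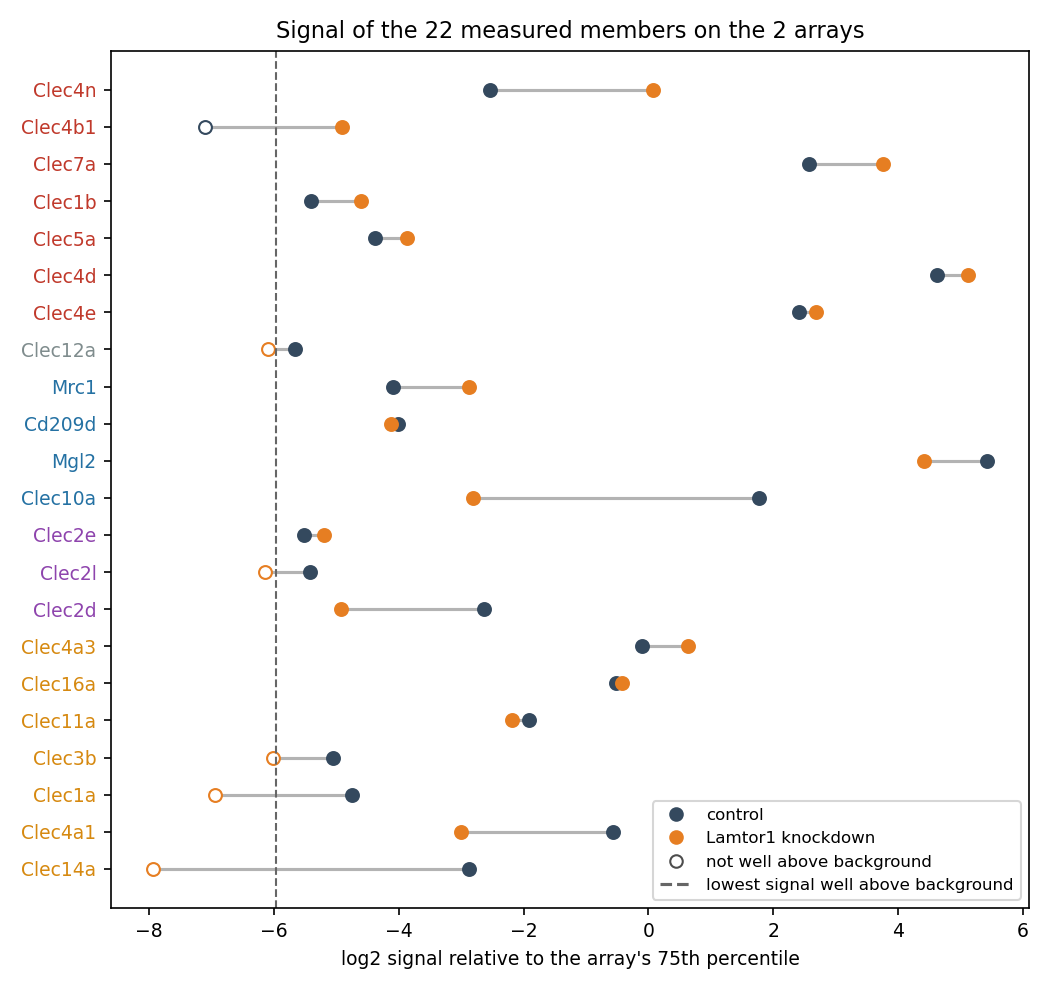
Log2 signal above the array's own 75th percentile, for the 22 measured members on the control (dark) and the knockdown array (orange), grouped by role through the colour of the gene names. Clec10a has the longest line toward lower signal with both ends above background, and Clec4n the longest toward higher signal. Open symbols were not well above background.

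Each member was read by a 60-base probe spotted once, and 35 of the 44 members had a single probe. The first 30 bases of the probes behind the members with the main differences are shown because every value of these genes rests on that probe. All probe positions are on the mm9 build of the files. Exon and UTR annotation of that build was not used here.
Clec4n, chr6:123196969-123197028: gtcttgccctggtttctttctatgaactgc
Clec7a, chr6:129411739-129411798: ttaataccacccttatttccagtgtggact
Mrc1, chr2:14253273-14253332: ctttttcagcagtcctgattcatgtcagtt
Clec10a, chr11:69984254-69984313: ctgaaatctgtgatattttgtacagtgtgc
Mgl2, chr11:69950985-69951044: cgggtcccctcctccttccttcataactag
Clec4a1, chr6:122884578-122884637: ctttggttttgctgatgtagaaccaacaaa
Clec2d, chr6:129136413-129136472: tcttctccctcttggtctttttaaagacca

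Several of these genes are close relatives, so the 60-base probes were compared with each other at every offset on the same strand. Between probes of different measured members the longest shared run was 11 bases, between Clec2e and Mgl2. The probes of Clec10a and Mgl2 shared no run over 5 bases, those of Clec4a1 and Clec4a3 none over 5, and those of Clec4d and Clec4n none over 6. The longest run in the whole set, 18 bases, joined Clec2f and Clec2j, neither of which was above background.

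Activating receptors of the Syk pathway formed the group with differences above 0 throughout. Of its 9 members 7 were measured and all 7 were above 0, 3 of them at 2-fold or more and none at 2-fold lower, with a median of 0.80. That median is the value of Clec1b, a dim gene whose 3 probes gave 0.31, 0.80 and 1.28. Clec4b1 was measured only through the knockdown array, which fixed its sign. Without it 6 were above background on both arrays, 2 of them at 2-fold or more, with a median of 0.66. Over all measured genes 9% were higher and 8.35% lower by 2-fold or more, and 45.7% of differences were above 0. Among genes above background on both arrays these shares were 6.31%, 5.52% and 45.4%. With normexp all 7 stayed above 0, but the median was 0.48 and Clec4b1 fell short of 2-fold. The value nearest to its scanner error was that of Clec4e.

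Clec4n, which encodes dectin-2, the receptor for fungal mannans that signals through Fcer1g, had the largest difference among the higher members. Its intensity was 201 in the control and 1325 in the knockdown. The log2 difference was 2.62 ± 0.21, or 6.16-fold higher, and Clec4n ranked 148 from the top among the 12565 genes above background on both arrays. With normexp it was 4.87-fold higher.

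Clec7a, which encodes dectin-1, the beta-glucan receptor with its own Syk-binding motif, had an intensity of 6978 in the control and 17018 in the knockdown. It was 2.28-fold higher, a log2 difference of 1.19 ± 0.20, and 2.29-fold higher with normexp. Both signals lie far above the dim range.

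Clec4d and Clec4e encode MCL and Mincle, receptors for mycobacterial glycolipid that pair with each other. The intensity of Clec4d was 28869 in the control and 43407 in the knockdown, a log2 difference of 0.49 ± 0.20. Clec4e had 6227 and 8045, a difference of 0.27 ± 0.20. Both were above 0 by more than the scanner error and short of 2-fold.

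The dimmer activating receptors were Clec5a, Clec1b and Clec4b1. Clec5a encodes the myeloid receptor MDL-1, which signals through Tyrobp. It had an intensity of 56.2 in the control and 85.8 in the knockdown, a log2 difference of 0.51 ± 0.24, and 0.22 with normexp. Clec1b encodes CLEC-2, the podoplanin receptor known from platelets. Its 3 probes gave log2 differences of 0.31, 0.80 and 1.28, with intensities of 21.3 to 32.2 in the control and 42.8 to 55.4 in the knockdown, and its value with normexp was 0.23. The third probe of Clec1b was above background on the knockdown array only. Clec4b1 encodes a dendritic cell immunoactivating receptor and had an intensity of 8.50 in the control, not above background, and 41.8 in the knockdown. It was at least 2.09-fold higher, and 1.40-fold higher with normexp. Its probe spans 17796 bases of the genome, so it reads across an intron. Clec9a, a receptor for dead cells on dendritic cells, and Clec4b2 were not above background on either array.

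Among receptors with an inhibitory motif only Clec12a was measured, of 4 members. Clec12a dampens responses to dead cells and uric acid crystals. Its intensity was 23.0 in the control and 18.4 in the knockdown, where it was not above background. The log2 difference was -0.42 ± 0.47, within the scanner error, and the bound was 1.22-fold lower. Clec12b, Clec4a2 and Clec4a4 were not above background on either array.

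**Figure D2:**
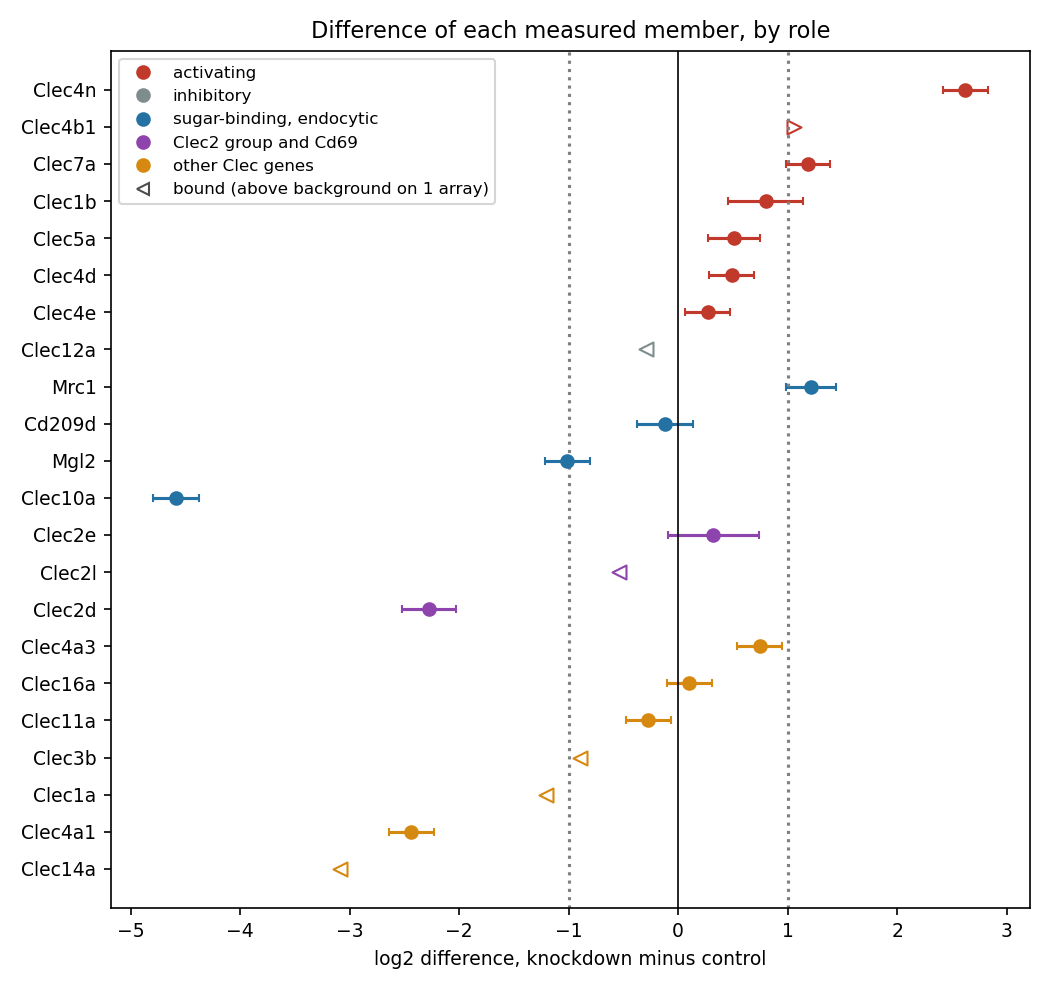
Log2 difference, knockdown minus control, of the 22 measured members ordered by role. Filled circles with bars show values with the scanner error, open triangles show bounds for genes above background on 1 array, and dotted lines mark 2-fold. The 7 activating receptors lie above 0, and the sugar-binding endocytic receptors run from -4.59 for Clec10a to 1.21 for Mrc1.

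The endocytic, sugar-binding receptors differed in both directions. Of 13 members 4 were measured, all above background on both arrays, 1 higher and 2 lower by 2-fold or more, where 6.31% and 5.52% of all such genes were. Clec10a encodes the galactose-type lectin MGL1, a marker of alternatively activated macrophages. Its intensity was 4011 in the control and 179 in the knockdown, a log2 difference of -4.59 ± 0.21, or 24.0-fold lower. It ranked 18 from the lowest among genes above background on both arrays, and was 16.3-fold lower with normexp.

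Mgl2, the neighbour and close relative of Clec10a, encodes MGL2. Its intensity was 50389 in the control and 26772 in the knockdown, a log2 difference of -1.01 ± 0.20, or 2.02-fold lower. Mgl2 lies at the threshold: normexp, median scaling, quantile normalization and cyclic loess each placed it just short of 2-fold, at -0.92 for the smallest difference. The probes of the pair lie 33.3 kb apart on chromosome 11, and the log2 difference of Clec10a minus that of Mgl2 was -3.58 ± 0.29.

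Mrc1, the macrophage mannose receptor CD206 and also a marker of alternative activation, went the other way. Its intensity was 68.7 in the control and 170 in the knockdown, a log2 difference of 1.21 ± 0.23, or 2.31-fold higher. With normexp it was 1.69-fold higher and so short of the threshold. Cd209d, which encodes the DC-SIGN relative SIGNR3, had 72.7 and 71.7, a difference of -0.12 ± 0.26. The other 6 Cd209 genes, Mrc2, the Kupffer cell receptor gene Clec4f and Clec4g were not above background on either array.

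Of the 9 Clec2 and Cd69 genes 3 were measured. Clec2d encodes Clr-b, a ligand by which healthy cells engage an inhibitory receptor of natural killer cells. Its intensity was 188 in the control and 41.5 in the knockdown, a log2 difference of -2.28 ± 0.25, or 4.85-fold lower, and 2.63-fold lower with normexp. It ranked 138 from the lowest among genes above background on both arrays. Clec2e had 25.5 and 34.2, a difference of 0.32 ± 0.41. Clec2l, which lies apart from the others on chromosome 6, had 27.4 and 17.7, the latter not above background. Its log2 difference was -0.73 ± 0.55, and the bound was 1.46-fold lower. Cd69, the early activation antigen of lymphocytes, had 3.81 and 4.08, which is not above background.

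Of the 9 remaining members 7 were measured, 3 of them lower by 2-fold or more and none higher by as much. Over all measured genes 8.35% were lower and 9% higher. Clec14a, Clec1a and Clec3b were measured only through the control array, which fixed their sign. Of the 4 above background on both arrays 1 was lower, where 5.52% of all such genes were, and the median was -0.086. Clec4a1 encodes DCIR4, a relative of the dendritic cell immunoreceptors. Its intensity was 794 in the control and 157 in the knockdown, a log2 difference of -2.44 ± 0.21, or 5.41-fold lower, and 4.15-fold lower with normexp. It ranked 121 from the lowest. Clec4a3, which encodes DCIR3, had 1088 and 1952, a difference of 0.74 ± 0.20. These relatives, whose probes lie 35.1 kb apart, thus differed in opposite directions.

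Clec14a, a gene known from endothelial cells, had an intensity of 160 in the control and 5.12 in the knockdown at its brighter probe, and was at least 8.48-fold lower. Its other probe was not above background on either array, at 5.12 and 5.34. With normexp the brighter probe was 3.64-fold lower. Clec1a, also known from endothelium, had 43.4 and 10.2, the latter not above background, which makes it at least 2.31-fold lower. With normexp Clec1a was 1.54-fold lower.

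The remaining Clec genes encode no membrane receptors of this kind. Clec3b, which encodes the secreted protein tetranectin, had 35.1 and 19.5, the latter not above background, which makes it at least 1.87-fold lower. Clec11a, which encodes a secreted growth factor of bone and marrow, had 311 and 275, a difference of -0.27 ± 0.21. Clec16a encodes an intracellular regulator of mitophagy and late endosomes rather than a lectin receptor. It had 818 and 941 at its brighter probe, a difference of 0.10 ± 0.20, and its other probe was not above background.

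The 22 members above background on neither array had intensities of 3.81 to 6.06 in the control and 4.08 to 18.9 in the knockdown. Their differences are not read here, since the scanner software replaces many such signals by surrogate values.

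Of the 44 members, 9 sit in the dectin-2 and 6 in the dectin-1 gene group on chromosome 6. In the dectin-2 group, 348 kb from the Clec4a1 to the Clec4e probe, 6 of 9 members were measured, 5 with a difference above 0 and 1 below. Along it the differences were -2.44 for Clec4a1, 0.74 for Clec4a3, at least 1.06 for Clec4b1, 2.62 for Clec4n, 0.49 for Clec4d and 0.27 for Clec4e. Clec4b1 was measured only through the knockdown array, which fixed its sign. In the dectin-1 group, 96.9 kb from Clec12a to Clec7a, 4 of 6 members were measured, 2 above 0 and 2 below. The 2 below, Clec12a and Clec1a, were measured only through the control array, which fixed their sign. The 2 above 0, Clec1b and Clec7a, were above background on both arrays. Over all measured genes 45.7% of differences were above 0, and 45.4% among genes above background on both arrays. Clec7a and Clec1a, with probes 34.2 kb apart, had differences of 1.19 and at most -1.21. Each group held near neighbours on opposite sides of 0, Clec4a1 with Clec4a3 and Clec7a with Clec1a. Only the first pair was above background on both arrays, and the filter fixed the sign of Clec1a. Inside each span the array held 1 probe of another name, and neither was above background. Outside them, Necap1 beyond Clec4a1 had a difference of 0.30 and Gabarapl1 beyond Clec7a one of 0.23. These flanking genes were picked by position with their values known. The probe named LOC100048461, 3.05 kb beyond the Clec7a probe, was above background on both arrays and had a difference of 0.89.

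**Figure D3:**
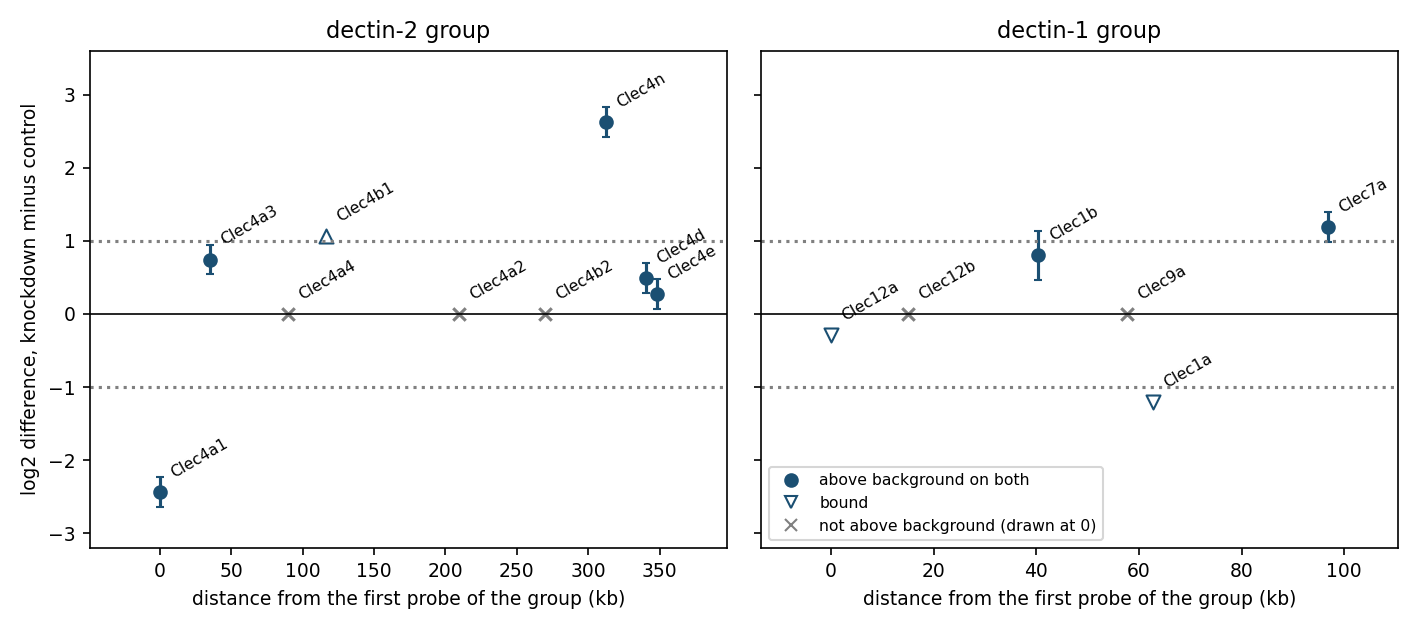
Log2 difference, knockdown minus control, against the distance in kb from the first probe of the dectin-2 (left) and dectin-1 group (right) of chromosome 6. Bars are scanner errors, open triangles are bounds, and crosses drawn at 0 mark members not above background on either array. Clec4a1 at -2.44 and Clec4n at 2.62 are the lowest and highest values of the left panel.

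Promoter sequences were taken from RefSeq for GRCm38.p6, as 250 bases before to 50 after each start. They were matched by symbol for 34 of the 44 members, with 37 promoters, and for 18 of the 22 measured members, with 20 promoters. The E-box CACGTG, the core of the motif bound by TFEB, was in none of the 37, and in 7.15% of all 32851 promoters. Among promoters of all measured genes it was in 9.64%. The longer form TCACGTGA was in none of the 37 either, and in 0.97% of all promoters. GAGGAA, the core of sites for the myeloid factor PU.1, was in 16 of the 20 promoters of measured members on either strand. It was in 3 of the 17 promoters of the other members and in 28.3% of all promoters. Among promoters of all measured genes the share was 26.9%.

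GAGGAA was chosen after other motifs had been looked at. In all 8 were searched on both strands, including the longer GAGGAAG and GAGGAAGT, which overlap it. GAGGAAG was in 6 of the 20 promoters, against 13.6% of all, and GAGGAAGT in none of the 37, against 3.20% of all. The overlapping GGAAGT was in 5 of the 20, against 23.8% of all promoters. TGAGTCA, the motif of AP-1 factors, was in none of the 20, in 5 of the 17 promoters of the other members and in 5.202% of all. The remaining motif, of a STAT type, was in none of the 37 and in 0.16% of all. A match is a run of letters, not a bound site, and these counts were not tested. The 200 bases before the start are shown for 3 genes above 0 and for Clec4a1, with GAGGAA or its reverse complement in capitals.
Clec7a, chr6:129472786-129472985, minus strand: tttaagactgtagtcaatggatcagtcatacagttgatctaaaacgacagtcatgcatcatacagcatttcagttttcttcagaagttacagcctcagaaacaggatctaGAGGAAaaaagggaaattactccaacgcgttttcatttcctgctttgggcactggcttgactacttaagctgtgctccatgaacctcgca
Clec4e, chr6:123289872-123290071, minus strand: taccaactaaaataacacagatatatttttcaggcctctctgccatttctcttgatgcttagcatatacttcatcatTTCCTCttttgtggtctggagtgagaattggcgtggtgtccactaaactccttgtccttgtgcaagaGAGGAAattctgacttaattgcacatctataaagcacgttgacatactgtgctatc
Mrc1, chr2:14229214-14229413, plus strand: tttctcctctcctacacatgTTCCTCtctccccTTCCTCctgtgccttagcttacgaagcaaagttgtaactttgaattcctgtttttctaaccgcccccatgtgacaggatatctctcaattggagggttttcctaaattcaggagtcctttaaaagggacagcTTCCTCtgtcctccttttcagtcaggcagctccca
Clec4a1, chr6:122921648-122921847, plus strand: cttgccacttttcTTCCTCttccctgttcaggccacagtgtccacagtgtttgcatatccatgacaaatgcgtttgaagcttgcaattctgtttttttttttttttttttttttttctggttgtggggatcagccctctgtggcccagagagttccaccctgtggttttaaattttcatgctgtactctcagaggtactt
The capitals occur upstream of Clec7a, Clec4e and Mrc1, which were higher or above 0, and upstream of Clec4a1, which was 5.41-fold lower. All genes shown are from the 15 measured members with GAGGAA in a matched promoter. Clec4n, Clec10a, Clec2d, Clec1a, Clec1b, Clec2e and Clec3b were not among those 15, for lack of the motif or of a matched promoter.

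Signalling genes of the receptors were read from a list of 22 genes, all of them measured. By plain differences 4 were higher by 2-fold or more and none lower by as much, against 9% and 8.35% of all measured genes. Of these 4, Vav2 and Src were measured only through the knockdown array. By bounds 2 of the 22 were higher, which is near the 7.73% over all measured genes, and the median by plain differences was 0.06. Syk, the kinase that the activating receptors recruit, had an intensity of 2569 in the control and 12699 in the knockdown, a log2 difference of 2.21 ± 0.20, or 4.61-fold higher. The files name this probe Sykb. Fcer1g, the chain that pairs with dectin-2, MCL and Mincle, had 157469 and 255504, a difference of 0.60 ± 0.20. Tyrobp, the adaptor of MDL-1, had 112755 and 172658, a difference of 0.52 ± 0.20. Card9, the scaffold downstream of Syk, had 345 and 300.3, a difference of -0.30 ± 0.21.

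Vav3, a guanine nucleotide exchange factor, had 863 and 2339, or 2.53-fold higher. Blnk, an adaptor phosphorylated by Syk, had 18118 and 37749, a difference of 0.96 ± 0.20. Ptpn6, the phosphatase SHP-1 recruited by inhibitory receptors, had 29191 and 16168, a difference of -0.95 ± 0.20. Vav2 and Src were not above background in the control and were higher by at least 1.86-fold and 1.52-fold. Card9's partners Bcl10 and Malt1 had differences of -0.05 and 0.59, and Plcg2 and Prkcd, which act between Syk and Card9, had -0.09 and 0.08.

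**Figure D4:**
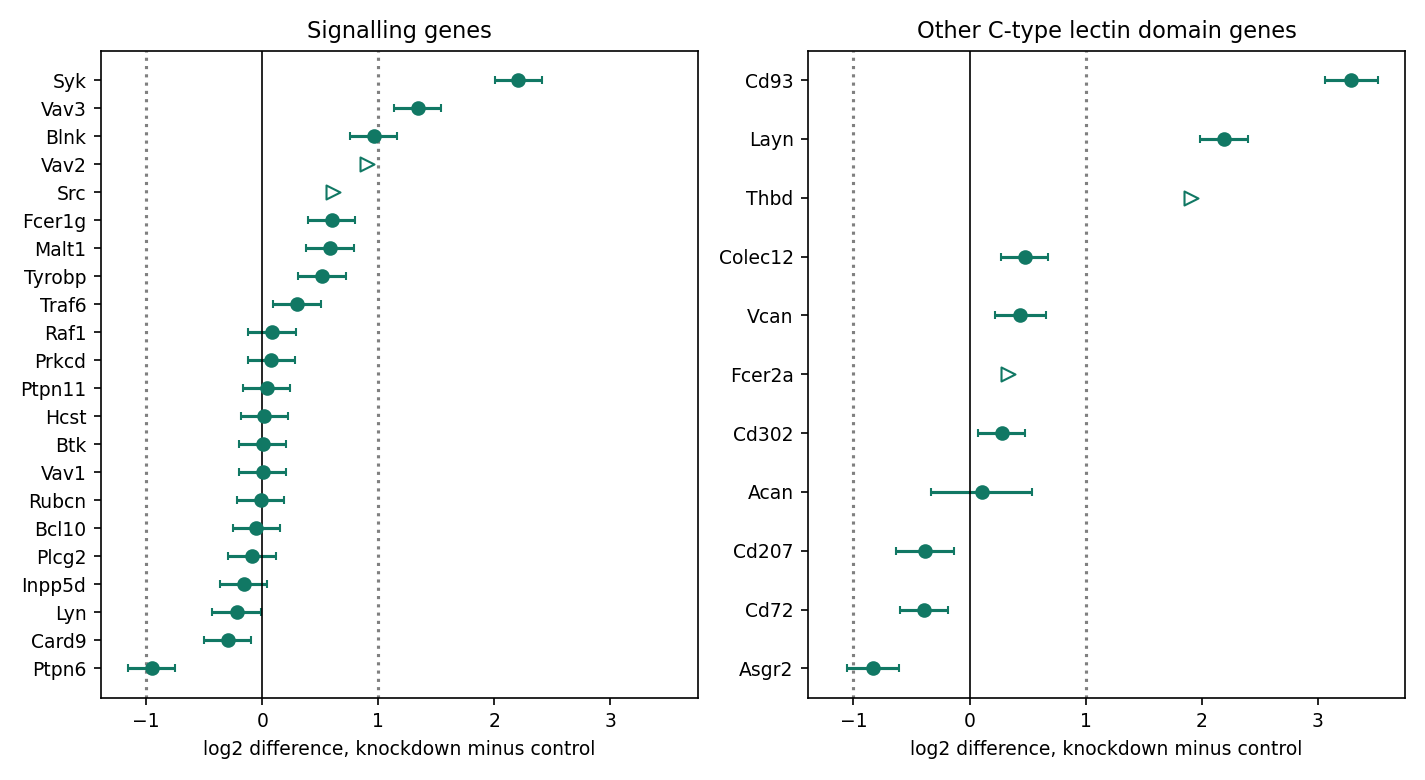
Log2 difference, knockdown minus control, of the 22 signalling genes (left) and of the 11 measured genes among other carriers of the C-type lectin fold (right). Bars are scanner errors, open triangles are bounds and dotted lines mark 2-fold. Syk at 2.21 and Cd93 at 3.29 lie at the top of each panel.

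Genes with a C-type lectin domain that bear other names were read from a list of 40, of which 39 were on the array and 11 were measured. Of these 3 were higher by 2-fold or more, none was lower by as much, and their median was 0.33. Over all measured genes 9% were higher and 8.35% lower, with a median of -0.05. Thbd and Fcer2a were measured only through the knockdown array, which fixed their sign. Of the 9 list genes above background on both arrays 2 were higher and 0 lower, with a median of 0.28. Among all genes of that kind 6.31% were higher and 5.52% lower. Cd93, a receptor of myeloid and endothelial cells, had an intensity of 67.0 in the control and 702 in the knockdown, or 9.78-fold higher. Layn, the hyaluronan receptor layilin, had 723 and 3545, or 4.58-fold higher. Thbd, thrombomodulin, was not above background in the control at 17.1, reached 74.95 in the knockdown, or at least 3.74-fold higher. Asgr2, a subunit of the asialoglycoprotein receptor that belongs to the galactose-binding lectins with Clec10a, had 152 and 91.3, a difference of -0.83 ± 0.22. Colec12, a scavenger receptor, had a difference of 0.48 ± 0.20, and Vcan, the matrix proteoglycan versican, one of 0.44 ± 0.22.

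Among the 10 members at 2-fold or more, Clec7a and Mgl2 were nearly equal under both background corrections. Clec14a, Clec1a and Clec4b1, each above background on 1 array, were smaller with normexp, at log2 differences of -1.87, -0.63 and 0.48. No member probe was spotted more than once. Other probes were, and the SD of the log2 difference among their spots had a median of 0.15 at levels below -3 (24 probes) and 0.03 at levels of 0 or more (125 probes).

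**Figure D5:**
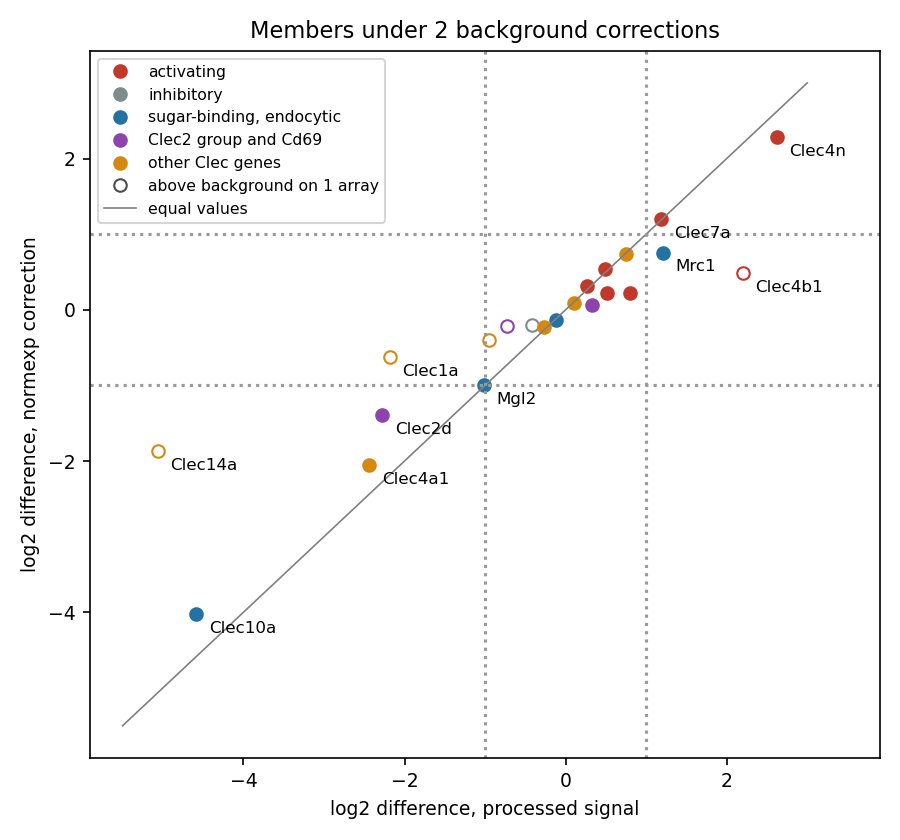
Log2 difference of each of the 22 measured members with the scanner's processed signal (horizontal) and with normexp correction (vertical), with the line of equal values. Members at 2-fold or more are named and open symbols were above background on 1 array. Clec7a and Mgl2 lie on the line, while Clec14a, Clec1a and Clec4b1 lie closer to 0 with normexp.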

How the data were processed

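Total RNA of control and Lamtor1 knockdown cells, 200 ng per sample, was labelled with Cy3 and put on 1 Agilent array each. The deposited values are linear intensity per spot from Agilent Feature Extraction 10.7.3.1, per the submitters' processing notes. Per the file headers, the processed intensity is detrended within the array, many dim signals are surrogates, positions are mm9, and both arrays share a slide and scan. The deposited value table holds the same intensity to within a ratio of 0.995 to 1.005, with column medians of 28 and 27.8, so it is linear and uncentred.

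From the files, log2 intensity was taken relative to the 75th percentile of non-control spots, 1172 in the control and 1255 in the knockdown. Of 43020 such spots, 22929 (53.3%) passed the background flag in the control and 22745 (52.9%) in the knockdown, and none was saturated. Outlier spots were left out, 162 and 177. Each gene was read from the probe with the highest mean signal over the arrays. Background genes were named through RefSeq of GRCm38.p6, where 30175 of 39420 probes matched. Alternatives used limma 3.58.1 (normexp with an offset of 50, quantile, cyclic loess). The calculation was tested on simulated data.

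No p-value was computed, since each group has 1 array. Every measured member is named, and some of the other members are given only as a group. List genes are named at 2-fold or more, with up to 3 others of largest difference, and Syk, Card9, Fcer1g and Tyrobp always. A few further list genes are named for their place in the pathway, with values known. The members, lists and rules were chosen with earlier results of these data known.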

Additional observations from a re-analysis of the deposited data

How the results depend on the processing

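Each measured member was recomputed under 10 other settings where the filter allowed it, 214 values in all. Of these 213 kept the sign of the main value, the exception being Cd209d at 0.01 with cyclic loess, and 207 kept their side of 2-fold. Many of the 214 values could hardly change. Changing the filter, taking the median over probes or keeping outlier spots returned the main value for every member. The deposited value table holds nearly the same intensities. The count of kept signs is therefore no measure of robustness. Those that did not were Mgl2 under 4 settings and Clec1a, Clec4b1 and Mrc1 with normexp. The count of members at 2-fold or more higher was 2 with normexp and 2 at a threshold of 4-fold, the latter by plain differences. The median over members was 0.30 when both arrays had to be above background. With normexp the medians were 0.48 for the activating receptors, -0.22 for the Clec2 and Cd69 genes and -0.40 for the other Clec genes. The endocytic receptors then had 0 genes higher and 1 lower, and they had 1 lower with median scaling, quantile normalization or cyclic loess. At 4-fold they had 0 higher and 1 lower. When dim probes were kept, they had 2 higher and a median of -0.042. In that setting the medians were 0.51 for the activating, 1.7e-05 for the Clec2 and Cd69 and -0.27 for the other Clec genes. With both arrays above background the other Clec genes had 1 lower and a median of -0.086. The signalling list had 2 genes higher with normexp, with both arrays above background, by bounds or at 4-fold by plain differences. The list of other lectin domain genes had 5 higher, 3 lower and a median of -0.020 with dim probes kept. Over all genes, 1240 higher and 1150 lower became 789 and 613 with normexp, 793 and 693 with both arrays above background, and 1657 and 1760 with dim probes kept. No paired analysis was possible because each group has 1 array.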

Other observations

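Pdpn encodes podoplanin, the ligand of the CLEC-2 receptor that Clec1b encodes, and was named here with its value known. Its intensity was 22.2 in the control and 3102 in the knockdown, or 131-fold higher at its brighter probe, and its other probe was above background in the knockdown only, while Clec1b stayed dim on both arrays. The probe named LOC100048461 lies 3.05 kb from the Clec7a probe and had an intensity of 64.0 in the control and 127 in the knockdown, a log2 difference of 0.89. Whether it reads a separate transcript was not analysed here.

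Cd209g, a DC-SIGN relative, had an intensity of 4.71 in the control and 18.9 in the knockdown. Neither value was well above background, and the knockdown value lies just under 20.2, the lowest signal flagged as well above background on that array. Klrb1c, a receptor gene of natural killer cells, was not above background at its brighter probe. Its other probe was above background in the knockdown only, at 28.2, against 4.82 in the control. A further gene of the family, Clec2m, is listed under an older name in the files and so falls outside the rule. It was not above background on either array.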
